A study of Mus musculus with 24 samples.

Results

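OL enrichment is the level of an mRNA on oligodendrocyte (OL) ribosomes relative to its level in the RNA of the whole spinal cord, and differential OL enrichment is how far that ratio moved between naive cord and day 42 after contusion. It was computed for each gene on the log2 scale as the OL to total ratio on day 42 minus the OL to total ratio in naive cord. The comparison used 12 of the 24 libraries of the series, 3 per group in 4 groups (naive total RNA, naive OL, day 42 total RNA, day 42 OL), and 17167 of the 21965 genes in the count table had enough counts to be tested. The same quantity for day 2 and day 10 used the other 12 libraries together with the same naive libraries.

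All mice had the genotype plp-cre;rpl22HA, in which the Cre line, after tamoxifen, adds an HA tag to the ribosomal protein Rpl22 in OLs and also in Schwann cells. The naive group was uninjured, and the day 42 group received a T9 contusion of 50 kdyn with the IH impactor. The labels carry 1 treatment note for all samples, naive included, which gives 10 to 12 weeks as the age at injury, while the methods of the study give a younger age. The labels give no separate age for the naive mice. The study states that naive tissue and tissue of the latest time after injury were taken on the same day, at the same age. Tissue was a segment of 5 mm around the epicenter, and each library came from a pool of 2 female mice. The input lysate gave total RNA and the anti-HA immunoprecipitate of the same pool gave OL RNA, so n = 3 pools per group. The p-values measure the spread between such pools.

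Oligodendrocytes wrap axons with myelin and also supply them with metabolites. Their survival and the formation of replacement OLs after contusion determine how much white matter stays myelinated, while microglia and infiltrating macrophages fill the lesion and clear myelin debris through their lysosomes. A ratio of OL to total RNA depends on the mRNAs on tagged ribosomes and on every other cell in the tissue, so it can move because its OL part changed, because its total part changed, or both. In such bulk tissue, fewer cells of a type and less RNA per cell cannot be told apart.

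The 12 libraries held 27739039 to 32987841 counts on genes. Markers of compact myelin and the OL surface (20 genes) summed to 124395 to 184518 CPM (counts scaled to a common library size) in the 6 OL libraries and to 24006 to 31341 CPM in the 6 total RNA libraries, with a median log2 OL enrichment of 2.84 in naive cord and 2.63 on day 42. For 1 OL and 1 total RNA library of day 42 the title and the description name opposite kinds of RNA. Their kind was taken from the description, which is also the column name, and by this assignment they had 124395 and 26510 CPM of these markers, each close to the other libraries of its kind. Astrocyte markers (15 genes) split the OL libraries within both groups, with 2702, 2487 and 14323 CPM in naive OL and 16678, 14614 and 3284 CPM in day 42 OL, against 8076 to 10907 CPM in total RNA. None of the 15 astrocyte markers was called in the comparison, and none was at 0 in every OL library of a group. Results are therefore also given without naive OL 3 and day 42 OL 1 and 2 (the libraries richer in these markers), and without the other 3 OL libraries (the poorer ones). Both settings were chosen after the data were seen.

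**Figure D1:**
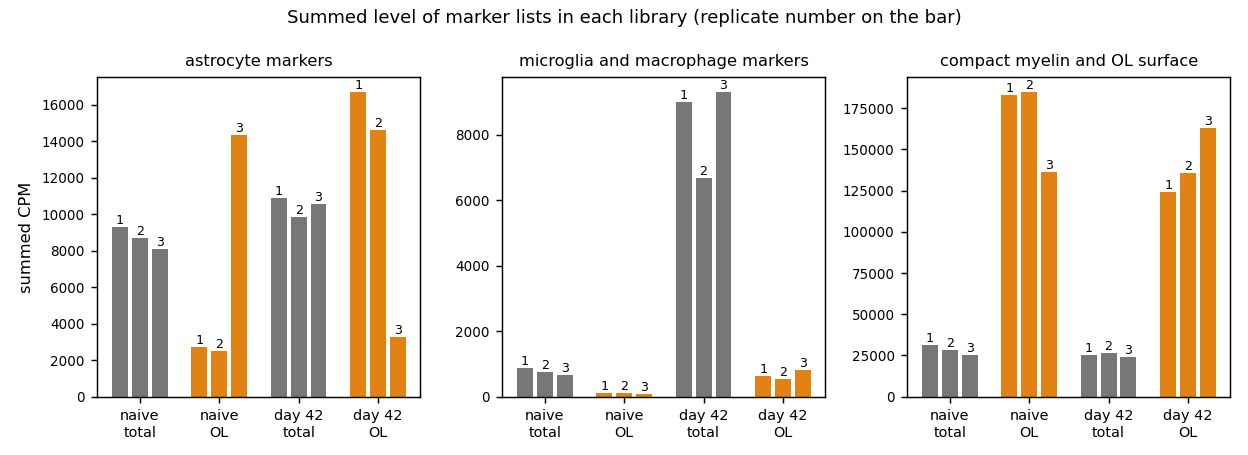
Summed CPM of 3 marker lists in each of the 12 libraries, grey for total RNA and orange for OL, with the replicate number on each bar. Astrocyte markers were high in naive OL 3 and in day 42 OL 1 and 2. Microglia markers rose in OL, from 96.6 to 118 CPM in naive cord up to 555 to 820 CPM on day 42. In total RNA they rose from 678 to 864 CPM up to 6670 to 9296 CPM. Myelin markers were higher in every OL library than in any total RNA library.

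By day 42, 267 genes had gained OL enrichment and 243 had lost it (absolute log2 difference over 1, q under 0.05, where q is the p-value of edgeR's quasi-likelihood test after Benjamini-Hochberg adjustment). These are 1.56% and 1.42% of all genes tested. Without a limit on size, 750 genes (4.37%) gained and 596 (3.47%) lost enrichment. The median difference over all genes was 0.04. The 3 day 42 ratios lay beyond the 3 naive ratios whatever the pairing in 235 of the 267 gains and 217 of the 243 losses, where 1358 and 1166 of all genes separated in these ways.

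The scaling moved the balance. When TMM used a total RNA library as its reference, the median over all genes was -0.18 and 134 genes gained and 554 lost enrichment, so that gains were 19.5% of calls instead of 52.4%. Single libraries also moved the counts by more than 1.5 times. There were 498 gains and 508 losses without naive OL 3, and 648 losses without day 42 OL 3. Gains were 137 and 108 without naive OL 1 and 2, 103 and 164 without day 42 OL 1 and 2, and 169 without day 42 total RNA 3, and losses were 376 without day 42 OL 2. Without the 3 OL libraries richer in astrocyte markers 183 genes gained and 258 lost, and without the 3 poorer ones 128 gained and 388 lost. Of the calls, 123 gains and 207 losses stayed past 1 in both of these settings, and all 267 and 243 kept their sign. Only 36 of the gains and 117 of the losses were still called in both. Each setting leaves 1 group with a single OL library, whose spread is taken from the other groups. Of the 36 genes chosen by the naming rule, all passed the test in both except Cox4i1 (q = 0.064 without the richer libraries) and Macrod2 (q = 0.19 without the poorer ones). Without the 2 libraries of conflicting labels there were 227 gains and 240 losses.

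The gains and the losses were built differently. Among the 267 gains, the OL level rose with no fall of total RNA in 227, total RNA fell with no rise in OL in 10, OL rose and total RNA fell in 27, and neither held in 3. Total RNA also rose in 32 of the 227. Their median OL change was 1.30 and their median total RNA change -0.17 on the log2 scale. Among the 243 losses, OL fell with no rise of total RNA in 90, total RNA rose with no fall in OL in 115, OL fell and total RNA rose in 34, and neither held in 4. In 26 of the 115 OL rose as well, by less than total RNA, and in 6 of the 90 total RNA fell as well. The losses had a median OL change of -0.52 and a median total RNA change of 0.86. Total RNA had risen past 1 in 108 of the losses, and in 58 of them OL was within 0.5 of its naive level and did not pass the test. The mirror image, total RNA falling past 1 while OL stayed, occurred in 1 gain, Macrod2.

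**Figure D2:**
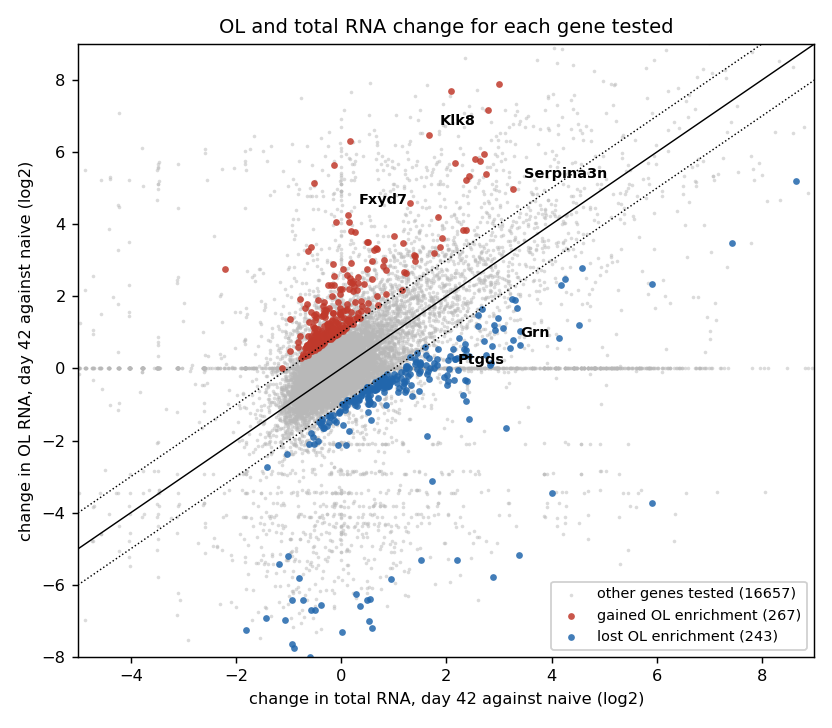
Each point is 1 of the genes tested, with its change in total RNA on the x axis and in OL RNA on the y axis (log2, day 42 against naive). The solid line marks equal change and the dotted lines a difference of 1, and 99 genes lie outside the axes. Most gains (red) sit above a total RNA change near 0, while many losses (blue) sit at an OL change near 0 and a rise in total RNA.

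Most genes that gained enrichment had been depleted from OL RNA. In naive cord 239 of the 267 were OL depleted (log2 ratio under -0.5, q under 0.05), as were 4909 of all genes tested, and their median enrichment moved from -2.32 to -0.49. On day 42, 123 of them were depleted and 42 were OL enriched (over 0.5). Genes that lost enrichment moved from a median of 0.90 to -0.61. Of these, 152 were enriched in naive cord and 41 on day 42. The naive ratio is part of the difference by which both sets of genes were chosen. The choice itself therefore favours low naive ratios among gains and high ones among losses. The full crossing was made by 14 genes from depleted to enriched and by 32 from enriched to depleted, and every one of these was among the calls, which the thresholds nearly ensure.

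Fxyd7, a regulatory subunit of the sodium pump (chr7:31042513-31051467, minus strand, GRCm38), had the smallest p of all gains and crossed from depleted to enriched. In naive OL its level was 5.88, 6.18 and 6.43 CPM, and in day 42 OL it was 120, 106 and 128 CPM. Total RNA held 67.6, 70.8 and 77.0 CPM in naive cord and 75.5, 91.4 and 69.2 CPM on day 42. The OL groups were far apart and the total RNA groups overlapped. OL enrichment moved from -3.54 to 0.58, a gain of 4.12 ± 0.20 (log2 ± SE, q = 3.5e-11). The gain stood between 3.59 and 4.25 in all 25 other settings.

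Klk8 (neuropsin, a secreted serine protease) and Col13a1 (a transmembrane collagen) crossed in the same direction from much lower levels. Klk8 had 0.798, 0.592 and 0 CPM in naive OL and 40.6, 33.3 and 46.9 CPM in day 42 OL, while total RNA went from 1.97, 2.93 and 0.856 CPM to 6.50, 3.84 and 7.97 CPM. Its gain was 4.79 ± 0.62 (q = 9.3e-05). Both kinds of RNA rose, with no overlap between naive and day 42 in either. Col13a1 was at 0 counts in all 3 naive OL libraries and had 11.9, 10.5 and 9.90 CPM in day 42 OL. Against a floor of 3 counts in each library (0.127 CPM), that was at least 85.1-fold higher. Its total RNA held 0.951, 0.548 and 0.380 CPM and then 4.52, 3.63 and 6.69 CPM, and its q for the gain was 0.00024.

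The other 2 crossing genes of smallest p rose less. Gpc1, a cell-surface heparan sulfate proteoglycan, had 106, 107 and 84.3 CPM in naive OL and 236, 169 and 190 CPM in day 42 OL, with a gain of 1.09 ± 0.18 (q = 0.00073). Smim26, a small integral membrane protein, had 8.78, 10.1 and 8.91 CPM and then 21.9, 16.7 and 15.5 CPM. Its gain was 1.42 ± 0.23 (q = 0.00076). In both genes every day 42 OL library was above every naive OL library. The gain of Smim26 was 0.90 with the length and GC offset and was lost when the replicate block was added (q = 0.071).

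Some gains were genes of vessels or axons that stayed below or near their total RNA level. Plvap, which forms the diaphragms of fenestrated endothelium, had 0.504, 0.423 and 1.15 CPM in naive OL and 10.5, 12.2 and 12.1 CPM in day 42 OL. Its total RNA overlapped between the groups, at 12.1 to 14.9 and 10.5 to 14.1 CPM, and its gain was 4.15 ± 0.41 (q = 3.3e-06). Its enrichment reached -0.08, that is, no enrichment over total RNA. Cadm3, an adhesion molecule of axons, gained 1.33 ± 0.17 (q = 9.3e-05), with OL from 33.9 to 46.3 CPM up to 59.8 to 75.4 CPM and total RNA down from 471 to 504 CPM to 306 to 379 CPM.

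Plvap was not accompanied by all vascular markers. Of 16 endothelial and pericyte markers, 2 gained enrichment (Kcnj8 and Acta2) and none lost it, with a list median of 0.65 beside 0.04 for all genes. Leaving out 1 library gave 1 to 3 gains and at most 1 loss. The list median was 0.25 without the OL libraries poorer in astrocyte markers and 1.06 without the richer ones. The list summed to 20.1 to 29.6 CPM in naive OL and 63.6 to 75.3 CPM in day 42 OL, against 263 to 331 and 431 to 585 CPM in total RNA, and none of the 16 was at 0 in every OL library of a group. Kcnj8, a pore subunit of ATP-sensitive potassium channels, had at most 2 counts in a naive OL library and was at least 28.1-fold higher in day 42 OL. The part of vascular RNA in the Plvap result was not tested.

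Neuron markers went both ways. Their 20 genes had a median difference of -0.01, with 2 gains past 1 (Eno2 1.00 and Thy1 1.86) and no loss, and their summed level was 1443 to 1823 CPM in naive OL and 1577 to 1814 CPM in day 42 OL. In total RNA it was 17090 to 18463 CPM and then 9589 to 15062 CPM, lower in each day 42 library, while the OL groups overlapped. Thy1 followed the split by astrocyte markers, with 30.1, 26.5 and 47.9 CPM in naive OL and 137, 119 and 50.1 CPM in day 42 OL.

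Genes against oxidative damage were among the gains. Gpx4, which reduces lipid peroxides and protects from ferroptosis, rose in OL from 196, 203 and 198 CPM to 564, 499 and 457 CPM. Its total RNA was 213, 209 and 209 CPM in naive cord and 234, 259 and 208 CPM on day 42. OL enrichment went from -0.08 to 1.12, a gain of 1.19 ± 0.15 (q = 9.3e-05), so an mRNA even between OL and the cord became OL enriched. Srxn1 (sulfiredoxin, which restores peroxiredoxins) rose from 46.3, 40.7 and 37.5 to 89.5, 83.1 and 71.8 CPM in OL. Its gain was 1.15 ± 0.15 (q = 8.2e-05). Gstp1, a glutathione transferase, rose from 240, 272 and 247 to 684, 543 and 555 CPM, a gain of 1.00 ± 0.15 (q = 0.00046). Reads of Gstp1 can be shared with near-identical copies, so its level is uncertain. With an offset for transcript length and GC content (described with the respiratory genes) the gain was 0.69 for Gpx4 and 0.54 for Gstp1, past the test but under 1, and 1.16 for Srxn1.

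In the list of 23 iron and glutathione genes, 5 gained enrichment at any size and 1 lost it, while 2 gained without any 1 of naive OL 1 and 2 and day 42 OL 1 and 2, and 3 gained without any 1 of naive total RNA 2 and 3 and day 42 total RNA 1 and 3. Besides Gpx4 the gains were Sod1 (0.98, a superoxide dismutase), Txn1 (0.79, thioredoxin), Txnrd1 (0.63, thioredoxin reductase) and Gclm (0.49, a subunit of the first enzyme of glutathione synthesis). The loss was Ftl1, the light chain of the iron store ferritin. Ftl1 rose in OL from 150, 137 and 117 to 399, 368 and 490 CPM and rose more in total RNA, from 125, 124 and 107 to 814, 597 and 855 CPM. Its differential enrichment was -1.03 ± 0.21 (q = 0.0037), so a gene whose OL level rose lost OL enrichment. Reads of Ftl1 can be shared with near-identical copies.

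The remaining gains of smallest p were a mixed group. Slc9a3r2, a scaffold for membrane transporters, went from 15.3, 15.9 and 13.7 to 54.2, 41.0 and 47.8 CPM in OL and gained 1.70 ± 0.20 (q = 3.5e-05). Snx10, a sorting nexin of the endosomal system, went from 11.1, 8.80 and 10.9 to 31.5, 26.2 and 20.6 CPM and gained 1.85 ± 0.22 (q = 4.5e-05). In both, the OL groups did not overlap. Tceal9 gained 1.52 ± 0.21 (q = 0.00024), with OL levels of 12.3 to 15.8 and 29.1 to 47.9 CPM. Acyp2, an acylphosphatase, gained 1.24 ± 0.17 (q = 0.00022), with 19.1 to 24.5 and 34.0 to 39.2 CPM, and was at 0.83 with the length and GC offset. Tceal9 was at 0.95 without the OL libraries richer in astrocyte markers.

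Serpina3n and S100a1 took up the most counts in day 42 OL of the genes that gained, on the CPM scale, which does not correct for transcript length. Serpina3n, a secreted inhibitor of serine proteases, rose in OL from 86.4, 47.2 and 44.9 to 1752, 1817 and 2099 CPM and in total RNA from 62.2, 54.5 and 51.9 to 628, 416 and 576 CPM. The rise was larger in OL by 1.72 ± 0.26 (q = 0.00048). It belongs to a family of close copies, so reads could be split between members. S100a1, a calcium-binding protein, rose in OL from 168, 180 and 205 to 978, 767 and 740 CPM and in total RNA from 69.7 to 82.5 up to 156 to 172 CPM. Its gain was 1.02 ± 0.16 (q = 0.00057), and it was already OL enriched in naive cord, at 1.31. With the length and GC offset its gain was 0.53.

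**Figure D3:**
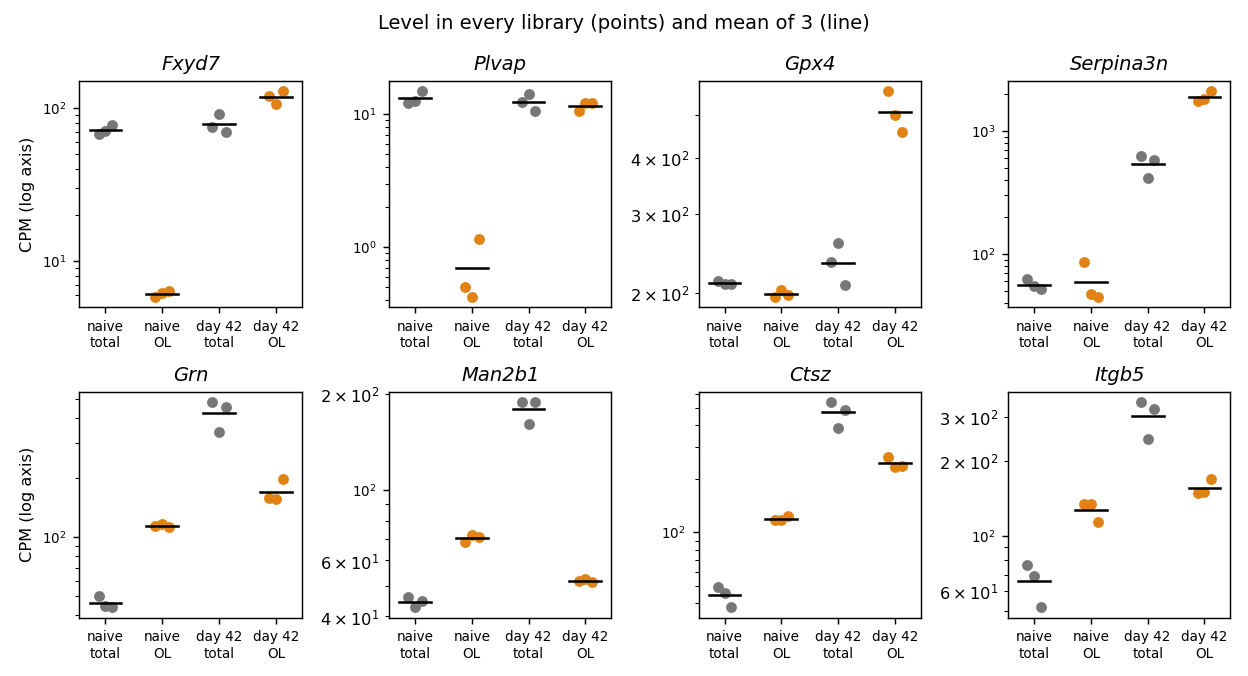
CPM on a log axis in each library (points) with the mean of 3 (line), grey for total RNA and orange for OL. Fxyd7, Plvap, Gpx4 and Serpina3n gained OL enrichment, mainly by higher points in day 42 OL, while Grn, Man2b1, Ctsz and Itgb5 lost it, with the largest step in day 42 total RNA.

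Genes of oxidative phosphorylation gained enrichment together, by a modest amount each. Of 36 nuclear genes of respiratory complex I, 27 gained at any size and 3 past 1 (Ndufs5 1.16, Ndufb6 1.05 and Ndufa11 1.03), with no loss and a median of 0.72. In complexes II to IV with cytochrome c, 20 of 24 gained, 7 past 1, and the median was 0.82. Among 17 ATP synthase genes, 10 gained, 4 past 1, with a median of 0.65. Cox7b, a subunit of complex IV, had the largest of these differences in complexes II to IV (1.31 ± 0.25, q = 0.0024), and Atp5e, the epsilon subunit of ATP synthase, the largest in its list (1.34 ± 0.23, q = 0.0011). The background is 4.37% of genes gaining at any size and a median of 0.04.

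Cox4i1, also of complex IV, was the member with the most counts among the gains. Its OL level rose from 342, 358 and 357 to 659, 552 and 486 CPM, while total RNA was 520, 494 and 492 CPM in naive cord and 369, 469 and 329 CPM on day 42. Both groups were apart in both kinds of RNA and moved in opposite directions, and the gain was 1.05 ± 0.18 (q = 0.0013). It was 0.55 with the length and GC offset and missed the threshold without the OL libraries richer in astrocyte markers (0.73, q = 0.064). In the complex I list the median OL change was 0.61 and the median total RNA change -0.15, and in complexes II to IV they were 0.69 and -0.23. Thus the median enrichment of complex I genes went from -0.57 to 0.18, and that of complexes II to IV from -0.84 to -0.01.

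The size of these gains depended on whether transcript length was adjusted for. Short transcripts gained more than long ones among all genes. OL and total RNA were purified with different kits, and whether this has a part in the length trend was not tested. The fifth of genes with the shortest transcripts (up to 1679 bases) had a median difference of 0.35, with 3.35% gains and 0.32% losses, and the fifth with the longest (4971 bases or more) had -0.11, with 0.88% gains and 2.39% losses. Genes that gained had a median transcript of 1853 bases, genes that lost 4213, and all genes 2993. The complex I list has a median of 977 bases. With an offset for length and GC content fitted to each library, 7 of 36 complex I genes gained and the median was 0.27, against 6 of 24 and 0.40 in complexes II to IV and 3 of 17 and 0.38 in ATP synthase, where 1 gene lost. Without the OL libraries richer in astrocyte markers the numbers gaining were 2, 7 and 3, and without the poorer ones 6, 5 and 3, with medians between 0.34 and 0.60. Leaving out naive OL 1 or 2 or day 42 OL 1 or 2 gave 11 to 13 gains in complex I, 8 to 10 in complexes II to IV and 4 or 5 in ATP synthase. The 3 list medians were above 0 in all 25 other settings.

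Other lists of short transcripts behaved alike in sign but less in size. All 75 mitochondrial ribosome genes were above 0, with 18 gaining at any size, 1 of them past 1 (Mrps12 1.04), and a median of 0.58. Of 31 proteasome genes, 8 gained and none lost, with a median of 0.40. Of 81 cytosolic ribosomal protein genes, 12 gained and 1 lost (Rplp0 -0.54), with a median of 0.28 (OL change 0.79, total RNA change 0.51). With the length and GC offset these medians were 0.33, 0.13 and -0.13, so the direction for cytosolic ribosomal proteins turned. Single libraries moved these counts by more than 1.5 times. Gains in the mitochondrial ribosome were 2 to 8 without any 1 of naive OL 1, 2 and 3, day 42 OL 1 and 2 and day 42 total RNA 3, 11 without naive total RNA 3, and 29 without day 42 total RNA 2. Gains in the proteasome were 0 to 4 without 1 day 42 OL library, 1 to 3 without 1 naive OL library, 4 without day 42 total RNA 1 or 3, 5 without naive total RNA 1 and 13 without day 42 total RNA 2. Gains in the cytosolic ribosome were 1 to 6 without 1 OL library of either group, 6 without naive total RNA 1, and 5 and 7 without day 42 total RNA 1 and 3.

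Immediate early genes, the transcription factors and regulators induced within minutes of a stimulus, had 4 gains past 1 among 16 and no loss. Fos gained 2.21 ± 0.33 (q = 0.00043), Fosl2 2.68 ± 0.59 (q = 0.0072), Junb 1.44 ± 0.31 (q = 0.0065) and Ier3 2.07 ± 0.63 (q = 0.048). For all 4 the OL level rose, and the list summed to 479 to 574 CPM in naive OL and 830 to 1150 CPM in day 42 OL. Without the OL libraries richer in astrocyte markers 3 genes of the list gained past 1, and without the poorer ones 1 did, with a list median of 0.32.

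Losses of OL enrichment were led by lysosomal genes. Of the 12 losses with the smallest p, Man2b1, Grn, Ctsz, Ctsd and Ctsa encode proteins of the lysosome lumen and Unc93b1 a carrier of Toll-like receptors to endosomes and lysosomes. Grn encodes progranulin, a secreted and lysosomal glycoprotein (chr11:102430315-102437048, plus strand, GRCm38). It had 50.4, 44.9 and 43.9 CPM in naive total RNA and 485, 340 and 458 CPM on day 42, and 114, 117 and 112 CPM in naive OL and 157, 156 and 196 CPM on day 42. It thus rose in both, with no overlap, but far more in total RNA. Its enrichment went from 1.30 to -1.33, a loss of -2.64 ± 0.19 (q = 3.0e-08).

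Man2b1, the lysosomal alpha-mannosidase, was the loss with the smallest p. Its OL level fell from 68.7, 72.0 and 71.3 to 51.7, 52.5 and 51.3 CPM while total RNA rose from 45.9, 42.7 and 44.8 to 189, 161 and 189 CPM. The differential enrichment was -2.46 ± 0.17 (q = 1.4e-08), and the gene crossed from enriched (0.67) to depleted (-1.79). Ctsd, an aspartic protease of the lysosome (cathepsin D), rose in total RNA from 286, 278 and 263 to 3142, 2081 and 2742 CPM and in OL from 313, 326 and 359 to 610, 552 and 557 CPM. Its loss was -2.48 ± 0.18 (q = 3.5e-08). Ctsz, a lysosomal carboxypeptidase (cathepsin Z), rose in total RNA from 49.4, 45.8 and 37.9 to 539, 387 and 487 CPM and in OL from 117, 117 and 123 to 265, 233 and 236 CPM. It lost -2.37 ± 0.17 (q = 3.1e-08).

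In Ctsa, Naglu and Tcirg1 the OL change did not pass the test. Ctsa, which protects beta-galactosidase and neuraminidase in the lysosome, had 395, 443 and 354 CPM in naive OL and 391, 369 and 451 CPM in day 42 OL, overlapping fully, while total RNA went from 125, 116 and 111 to 452, 329 and 409 CPM. Its enrichment moved from 1.76 to 0.02, a loss of -1.73 ± 0.17 (q = 3.3e-06). Naglu, an enzyme of heparan sulfate breakdown, had 34.6, 34.8 and 30 CPM and then 52.5, 31.1 and 43.7 CPM in OL, and rose in total RNA from 6.89, 7.80 and 7.48 to 43.9, 33.6 and 41.3 CPM. Tcirg1, the a3 subunit of the vacuolar proton pump, had 40.4, 42.0 and 32.1 CPM and then 26.8, 26.4 and 37.7 CPM in OL, with total RNA from 9.41 to 12.4 up to 36.3 to 56.8 CPM. Their losses were -2.06 ± 0.23 (q = 2.4e-05) and -2.48 ± 0.29 (q = 2.6e-05). Unc93b1 differed, since its OL level rose from 15.3, 15.6 and 17.9 to 24.9, 25.7 and 24.3 CPM (0.62, q = 0.0011). Its total RNA rose more, from 16.4, 14.3 and 15.5 to 123, 86.6 and 129 CPM, and it lost -2.25 ± 0.19 (q = 2.5e-07).

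Over the list of 43 lysosomal enzymes and their activators, which was composed after values had been seen, 21 lost enrichment at any size, 11 of them past 1, and none gained. The background is 3.47% of genes losing at any size. The median was -0.62, with a median OL change of 0.07 and a median total RNA change of 0.89, and the median enrichment went from 0.57 to -0.21. Besides the genes above, Lipa (-1.86, acid lipase), Gusb (-1.80, beta-glucuronidase) and Hexa (-1.41) were among those that lost past 1, while Gla, Gaa and others did not pass. In settings that left out the richer or the poorer OL libraries 20 genes of the list lost in each, and with the length and GC offset 20.

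The lysosomal membrane divided. Of 28 genes of the membrane and proton pump, 6 lost and 6 gained at any size, with a median of 0.01. The losses were Tcirg1, Unc93b1, Ctns (-1.22, the cystine exporter), Npc1 (-0.93, the cholesterol exporter), Lamp2 (-0.71) and Lamp1 (-0.67). All 6 gains were subunits of the proton pump, namely Atp6v1d (0.85), Atp6v1e1 (0.67), Atp6v1g1 (0.63), Atp6v1f (0.63), Atp6v0b (0.61) and Atp6v1c1 (0.55). With the length and GC offset 1 gene of the list gained and 6 lost, and 3 gained without any 1 of naive OL 1, 2 and 3 and day 42 OL 1 and 2.

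Microglia and macrophage markers rose in total RNA beside these losses. The list of 20 genes summed to 678 to 864 CPM in naive total RNA and 6670 to 9296 CPM on day 42, and to 96.6 to 118 and 555 to 820 CPM in OL. Its median enrichment was -3.75 in naive cord and -3.74 on day 42, with 1 gain (Spp1 1.47, osteopontin), 2 losses (among them Gpnmb, -3.46) and a median difference of 0.15. There were 5 losses without day 42 OL 3. None of the 20 was at 0 in every OL library of a group. The part of microglial and macrophage RNA in the lysosomal result was not tested.

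Many lysosomal genes share a palindromic element that is bound by TFEB and related factors. It was searched as TCACGTGA and as its core CACGTG (both equal to their own reverse complement, the core also being counted inside the longer form) in the 250 bases before RefSeq transcript starts on GRCm38.p6. The windows below come from lysosomal genes of the list, 3 that lost enrichment past 1 and, for contrast, Glb1 (beta-galactosidase), which was not called (-0.62, q = 0.32). The motif is in capitals, and the strand and the GENCODE annotation of the place are given.
Ctsd, chr7:142387908-142387937, minus strand, UTR exon: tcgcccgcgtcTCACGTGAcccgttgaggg
Ctsa, chr2:164833749-164833772, plus strand, UTR exon: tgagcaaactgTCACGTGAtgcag
Naglu, chr11:101070009-101070038, plus strand, UTR exon: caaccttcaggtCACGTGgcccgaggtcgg
Glb1, chr9:114401018-114401047, plus strand, upstream of the gene: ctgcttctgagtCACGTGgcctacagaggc
The core was found for 11 of the 34 enzyme genes with a RefSeq promoter entry (32.4%) and for 9.05% of the genes tested that had one. For the enzyme genes that lost past 1 the share was 3 of 9 (33.3%), close to that of the list. Among genes that lost OL enrichment the share was 10% (19 of 190), and among genes that gained it 8.65% (18 of 208). The longer form was found for 3 of the 34 enzyme genes (8.82%) and for 1.45% of the genes tested. Gla, which was not called (-0.16), was among the 3. This is a description of sequence and not of binding.

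The other losses of smallest p reported here were of mixed kinds. Itgb5, the beta 5 integrin subunit, had 134, 134 and 114 CPM in naive OL and 149, 150 and 169 CPM in day 42 OL, and its total RNA rose from 76.8, 69.4 and 51.7 to 345, 245 and 323 CPM. It crossed from enriched (0.95) to depleted (-0.96), a loss of -1.91 ± 0.20 (q = 6.0e-06). Its OL change did not pass the test (0.29, q = 0.12). Adam17, the protease that sheds tumor necrosis factor, differed in that OL fell, from 96.6, 93.2 and 78.5 to 39.0, 42.1 and 52.2 CPM, while total RNA rose from 21.9 to 26.7 up to 38.3 to 50.5 CPM. Its loss was -1.87 ± 0.19 (q = 6.6e-06).

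P2rx7, an ATP-gated channel, behaved like Adam17. It fell in OL from 66.5, 70.2 and 54.4 to 36.1, 35.7 and 40.0 CPM and rose in total RNA from 12.4 to 15.5 up to 28.5 to 40.4 CPM, a loss of -2.11 ± 0.23 (q = 1.4e-05). Tcn2, the carrier of vitamin B12 in plasma, lost -1.77 ± 0.19 (q = 1.4e-05), with OL from 89.0 to 101 down to 64.7 to 73.6 CPM. Serinc3, a membrane protein, lost -1.21 ± 0.13 (q = 1.4e-05), with OL from 446 to 505 down to 267 to 328 CPM and total RNA from 279 to 307 up to 403 to 410 CPM. In these 3 genes no library of day 42 overlapped naive in either kind of RNA.

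**Figure D4:**
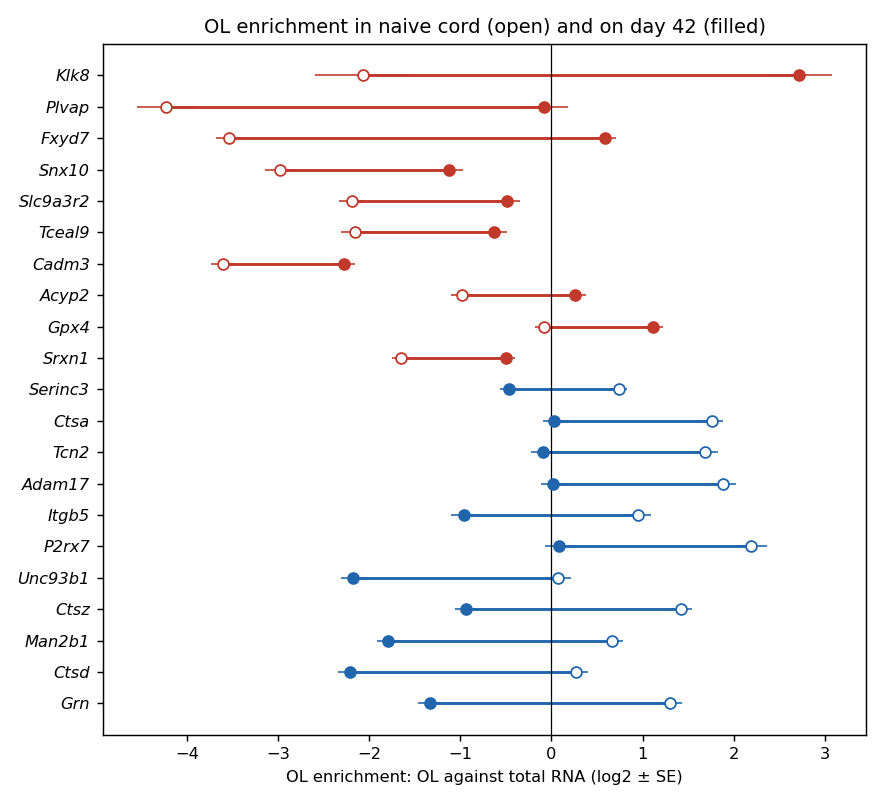
OL enrichment (log2 ratio of OL to total RNA ± SE) in naive cord (open circles) and on day 42 (filled circles) for 11 of the 12 losses (blue) and 10 of the 12 gains (red) of smallest p. Col13a1 is among those left out, since it had no count in naive OL. Fxyd7, Klk8, Gpx4 and Acyp2 crossed 0 upward, and Man2b1, Grn, Ctsz, Ctsd, Unc93b1, Itgb5, Serinc3 and Tcn2 crossed it downward.

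Abundant OL products were also among the losses. Ptgds, the enzyme that makes prostaglandin D2, had 2382, 3008 and 2615 CPM in naive OL and 2463, 2362 and 2259 CPM in day 42 OL, and its OL change did not pass the test (-0.18, q = 0.60). Its total RNA rose from 441, 457 and 430 to 1979, 1331 and 2034 CPM, and the loss was -2.19 ± 0.32 (q = 0.00031). Gsn, the actin-severing protein gelsolin, fell in OL from 3108, 3393 and 2495 to 1917, 2052 and 2387 CPM and rose in total RNA from 267, 246 and 209 to 514, 373 and 449 CPM. It lost -1.39 ± 0.18 (q = 0.00011) and was still OL enriched on day 42, at 2.25.

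Few myelin genes were called. None of the 20 genes of compact myelin and the OL surface passed 1 and only Gjc3, a glial connexin, lost enrichment at any size (-0.53, q = 0.049), with a list median of -0.08. This rested on single libraries, since 6 of the 20 lost (1 past 1, median -0.40) without naive OL 3, 5 lost (median -0.36) without day 42 OL 3, and none lost without any 1 of the 6 total RNA libraries. Among 12 OL transcription factors, Sox10, the lineage factor, lost -0.69 ± 0.19 (q = 0.029). Its changes in OL (-0.35, q = 0.055) and in total RNA (0.35, q = 0.072) did not pass. No gene of that list lost without naive total RNA 3, without day 42 total RNA 1 or 3, or without the 2 libraries of conflicting labels. There were 5 losses in it without day 42 OL 3. Of 12 markers of OPCs and newly formed OLs, Tcf7l2, which marks OLs as they differentiate, lost -1.73 ± 0.36 (q = 0.0048), with a rise of 1.08 in total RNA and an OL change of -0.65 that did not pass (q = 0.053).

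Lipid synthesis lost enrichment through OL RNA that fell more than the cord. Of 20 genes of cholesterol synthesis, 6 lost at any size, none past 1, and none gained, with a median of -0.59. Their median OL change was -1.48 and their median total RNA change -0.90. Sqle (squalene epoxidase) fell by 2.31 in OL and by 1.32 in total RNA. Hmgcs1 (-0.83), Cyp51 (-0.68) and Dhcr7 (-0.63) were also among the 6. The cholesterol calls were not stable, since 1 of 20 was left with the length and GC offset, 2 with the replicate block, 3 without the richer and 1 without the poorer OL libraries, and none without the 2 libraries of conflicting labels, where the median was -0.18 and 1 gene gained. Leaving out 1 library gave 1 to 13 losses, with 13 without day 42 OL 3, 9 without naive OL 3, and 1 to 3 without naive total RNA 1, 2 or 3 or day 42 total RNA 1 or 2.

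Of 20 genes of fatty acid and myelin lipid synthesis, 7 lost at any size and none gained (median -0.41). Cers2, the ceramide synthase of myelin lipids, lost -0.98 ± 0.17 (q = 0.0012) with an OL change of -0.97 and a total RNA change of 0.01. Elovl1 (-0.87), Elovl7 (-0.76) and Elovl5 (-0.57), which lengthen fatty acids, Acly (-0.93), Sgms1 (-0.85) and Scd1 (-0.61) also lost. In all 7 the OL level fell. There were 4 to 7 losses in the list with the offset, the block, without the libraries of conflicting labels and without the richer or the poorer OL libraries, 13 without naive OL 3 or day 42 OL 3, and 4 without naive total RNA 3 or day 42 total RNA 2.

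Actin and adhesion genes lost more than they gained, with 8 of 32 losing at any size, none gaining, and a median of -0.51. The background is 3.47% of genes losing at any size. The list has a median transcript of 5778 bases, and with the length and GC offset 6 lost and the median was -0.33. Tln1 (talin, which links integrins to actin) lost -1.46 ± 0.17 (q = 3.5e-05) as OL fell by 0.64 and total RNA rose by 0.82. Iqgap1, an actin scaffold, lost -1.62 ± 0.35 (q = 0.0063) through total RNA alone, which rose by 1.77. Ctnnb1, beta-catenin, lost -0.73 ± 0.11 (q = 0.00039) through OL alone, which fell by 0.63. Of 19 ER chaperones and folding enzymes 4 lost and none gained, led by Edem1 (-1.47 ± 0.21, q = 0.00024), which targets misfolded proteins for degradation, with Pdia4, Pdia3 and Dnajc3. The median over the ER list was -0.39. Without naive OL 3 the losses were 17 in the actin and adhesion list and 9 in the ER list, and without day 42 OL 3 they were 19 and 13. In the ER list they were 8 without day 42 OL 2 and 2 without naive total RNA 2 or 3 or day 42 total RNA 1 or 3.

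**Figure D5:**
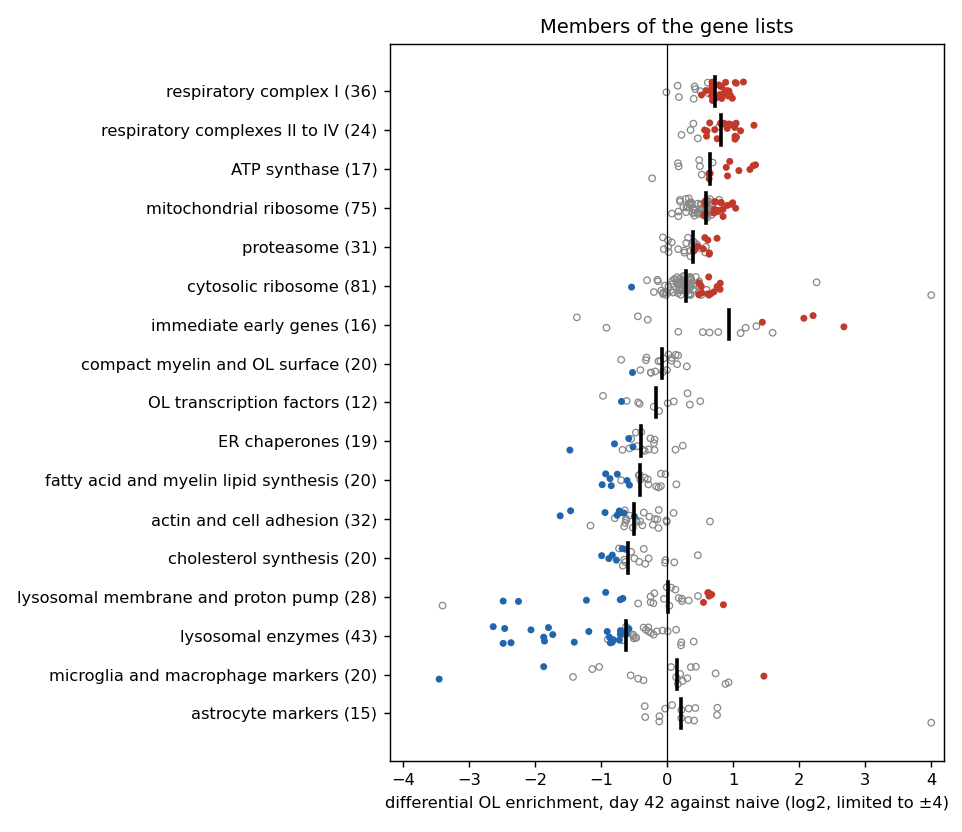
Differential OL enrichment (log2) of each member of 17 gene lists, with the number of members in brackets and the list median as a black bar. Filled points have q under 0.05 (red gained, blue lost), open points do not, and 2 members beyond 4 are drawn at the limit. The respiratory lists sit to the right of 0, 11 of the lysosomal enzymes are called past -1, and the myelin list is centred near 0.

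Other lists gave few calls. None of 20 Schwann cell markers, 20 genes of FGF signalling and Sprouty, 16 interferon-stimulated genes and 10 lymphocyte markers passed, with list medians of 0.04, -0.03, -0.29 and -1.5, and the lymphocyte list summed to at most 1.82 CPM in an OL library. These lists, and those of other cell types, depended on naive OL 3. Without it 5 Schwann cell markers gained past 1 and 2 lost (median 1.02), 1 interferon-stimulated gene and 1 gene of the FGF list gained, 4 MHC genes gained (median -0.01), and the fibroblast median was 0.98. Of 16 genes of MHC class I and II, Tapbp lost (-0.81). Of 10 ependymal markers, Foxj1 gained (0.77). Fibroblast and meningeal markers (12 genes) had 2 losses, Postn (-3.31) and Col1a2 (-1.11), with a median of -0.82. Of 17 glycolysis genes, Eno2 gained and Hk2 lost (-2.69). Of 17 TCA cycle genes 3 gained, and of 14 cytosolic heat shock genes 3 gained, among them Hspb1 (3.24). Leaving out 1 library gave 0 to 5 gains in the TCA cycle list and 0 to 3 in the heat shock list. No TCA cycle gene gained with only the 12 libraries compared, and no heat shock gene with the length and GC offset. Among 22 genes of the integrated stress response, Cebpb gained 2.89 and Phgdh lost -0.46. Of 34 translation factors, 2 gained and 2 lost, Eef1a1 with -0.88.

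Lists of channels and receptors held single calls. In 12 sodium pump and Fxyd genes, Fxyd7, Fxyd6 (2.04) and Atp1b1 (0.89) gained. Without any 1 of naive OL 1 and 2 and day 42 OL 1 and 2 only 1 gain was left in this list, Fxyd7. In 69 potassium channel genes, Kcnj8, Kcnk2 (1.56) and Kcna2 (0.84) gained and Kcnj2 lost (-1.58). Of 25 glutamate receptor genes, Grm4 gained (1.42). Of 12 S100 genes, S100a1 and S100b (0.56) gained, and S100a9, which fell from at most 6 counts to none in OL, lost. Of 13 kallikrein and Serpina3 genes, Klk8, Serpina3n and Serpina3c gained, the last at least 8.75-fold higher in OL. Of 19 genes of the paranode and axon contact, Cadm3 gained and Tjp1 (-1.13) and Sirt2 (-0.56) lost. Of 9 genes of sterol regulation, Insig2 gained (0.77) and 1 lost.

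OL enrichment on day 42 was tested against that on day 2 and on day 10, without naive libraries. Of the 267 gains, 14 differed between day 42 and day 2, with 7 further from naive on day 42 and 7 nearer, and none differed between day 42 and day 10. Of the 243 losses, 17 differed from day 2 (14 further from naive and 3 nearer) and 4 from day 10, all further. Over all genes, 79 had higher and 86 lower enrichment past 1 on day 42 than on day 2, and 1 and 8 than on day 10. A q over 0.05 in these tests does not show that the enrichment was equal. The gains had a median differential OL enrichment of 1.29 on day 2, 1.16 on day 10 and 1.4 on day 42, and the losses of -1.36, -1.29 and -1.44, where the 3 comparisons share the naive libraries and the genes were chosen by the day 42 values.

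Binning genes by their day 2 enrichment, which uses no library of the comparison, gave medians of -0.15 for genes under -4 (1691 genes), 0.22 for -4 to -2, 0.21 for -2 to -0.5, 0.05 for -0.5 to 0.5, -0.03 for 0.5 to 2 and -0.11 for genes over 2 (624 genes). In the same order, gains were 5 of 1691, 56 of 2483, 91 of 3222, 73 of 5479, 39 of 3668 and 3 of 624 genes. Losses were 19, 29, 74, 73, 43 and 5 in these bins.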

How the data were processed

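OL and total RNA were measured by RNA-seq in pools of mice carrying the OL-Ribotag. The deposited table holds raw counts per gene, which the authors made with HTSeq 0.10.0 after STAR alignment to mm10, with read quality checked by FastQC 0.10.1 according to the submitters' processing notes. From these counts, edgeR 4.0.16 (R 4.3.3) fitted all 24 libraries with 8 group means, TMM factors and the quasi-likelihood test, and Benjamini-Hochberg q-values covered the 17167 genes whose counts summed to 10 or more. CPM values use TMM-scaled library sizes. A prior count of 2 was used only for log2 CPM, as in the check of whether libraries separate. The fitted fold changes kept edgeR's default prior, so those of genes near 0 counts are large and imprecise. Calls needed q under 0.05 and an absolute log2 difference over 1. Libraries held 27739039 to 32987841 counts, and 3 counts, the floor used for genes at or near 0, were 0.127 CPM in naive OL. The floor covers counting error only, while the SEs come from the fit and include the spread between pools. Transcript length and GC content came from GENCODE, and 17154 of the genes tested had them. Promoter sequences came from RefSeq on GRCm38.p6.

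Genes named were the 12 gains and 12 losses of smallest p whose libraries separated and whose mean reached 5 CPM in a group, the 5 of smallest p that crossed between depleted and enriched in each direction, up to 4 of smallest p per direction with total RNA alone changed, the 5 of highest CPM in day 42 OL per direction, and members of the gene lists. Some genes chosen by these rules are not reported here. Members and lists were chosen with earlier results of these data known, and the lysosomal lists after their values had been seen. OL and total RNA with the same tissue number in the column names come from 1 pool (day 42 OL 1 with total RNA 2 and OL 2 with total RNA 1), and the correlation of their deviations from the group means was between -0.0109 and 0.137. Alternatives were other scalings (library sizes alone, DESeq2 size factors, TMM with another reference), other gene filters, only the 12 libraries compared, a replicate block, a length and GC offset with and without the block, the Wald test of DESeq2 1.42.0, and leaving out libraries. The test was also run on simulated data.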

Additional observations from a re-analysis of the deposited data

Results flagged for a closer look

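OL enrichment differed between day 42 and day 2 for 6 of the genes named, by edgeR's quasi-likelihood test of that difference with Benjamini-Hochberg adjustment over all genes. Col13a1 was higher on day 42 by 3.26 (log2, q = 0.017), S100a1 by 0.92 (q = 0.0042) and Gstp1 by 0.70 (q = 0.022). Slc9a3r2 was lower on day 42 by -1.46 (q = 0.00054), with 161, 120 and 135 CPM in day 2 OL against 41.0 to 54.2 CPM in day 42 OL. Ctsd (-0.81, q = 0.025) and Gsn (-0.86, q = 0.017) were further below naive on day 42 than on day 2. Groups held 3 libraries, too few for a check of single values.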

How the results depend on the processing

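No gene called in the comparison changed sign under any of the 25 alternatives. With TMM on a total RNA reference there were 134 gains and 554 losses. The replicate block by tissue pool gave 247 gains and 210 losses, and with the length and GC offset as well it gave 155 gains. Without the OL libraries poorer in astrocyte markers there were 128 gains, 388 losses and 850 genes of any size, and without the richer ones 656 of any size, where the lone naive OL and the lone day 42 OL library, respectively, are assumed to vary like the other groups. Leaving out 1 library gave 103 to 498 gains, 173 to 648 losses and 807 to 2155 genes of any size against 1346. The any-size counts past 1.5 times were 886 and 892 without naive total RNA 2 and 3, 2120 without naive OL 3, 865 and 807 without day 42 total RNA 1 and 3, and 2155 without day 42 OL 3. Of the 36 genes named by rule, 32 passed in all alternatives. S100a1 (q = 0.076) and Smim26 (q = 0.071) were lost with the offset and the block, Cox4i1 without the richer libraries and Macrod2 without naive OL 2 (q = 0.062) or the poorer libraries. Under the block alone none of the 36 lost its call, while calls in the cholesterol list went from 6 to 2. DESeq2's Wald test gave 373 gains and 355 losses. The causes were not tested.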
